A study of Mus musculus with 19 samples.

Results

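The nuclear-encoded subunits of respiratory complex I, the NADH:ubiquinone oxidoreductase of mitochondria, were followed in RNA sequencing of mouse kidney. Members were taken by gene symbol, as every Ndufa, Ndufab, Ndufb, Ndufc, Ndufs or Ndufv gene with a plain number, which leaves out assembly factors and pseudogenes. The rule found 37 genes among the 54146 listed in each RNA file. All 37 passed the filter of a mean of at least 1 TPM and stand among the 13963 genes tested. One of them, Ndufa4, carries a complex I name but encodes a protein found in complex IV.

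RNA came from whole kidneys of B6C3F1/J mice at postnatal day 21. There were 2 KspCre DKO libraries, whose animals carried floxed Dnmt3a and Dnmt3b (Dnmt3ab f/f) together with KspCre, a Cre recombinase expressed from the Ksp-cadherin (Cdh16) promoter in tubule epithelium. The control group held 3 libraries of the same floxed genotype with no Cre named in the label, so both groups carry the floxed alleles and only tubule cells are targeted in the KspCre DKO organ. Both genes encode de novo DNA methyltransferases, and the study addressed their part in shutting down fetal enhancers. Whether replicates are separate animals is not labelled, so the p-values cover only library-to-library spread, which may be technical. Values are TPM, transcript abundances per unit of transcript length scaled to a fixed sum per library. TPM keep no read number, so the depth behind each value is unknown.

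Complex I is an L-shaped enzyme that takes electrons from NADH, passes them along iron-sulfur clusters to ubiquinone and pumps protons across the inner mitochondrial membrane. Its core subunits carry the cofactors or the proton channels. The core subunits of the matrix arm are nuclear-encoded, those of the membrane arm are encoded by the mitochondrial genome, and a large set of nuclear accessory subunits surrounds both. The N module of the matrix arm oxidises NADH, the Q module reduces ubiquinone, and the membrane arm has a proximal and a distal part. Kidney tubules, above all the proximal tubule and the thick ascending limb, are rich in mitochondria, which supply the ATP for salt and solute reabsorption.

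The library labelled KspCre DKO replicate 2 stood apart from the other 4. Genes above 0 TPM numbered 14710 there and 20510 in the other KspCre DKO library, against 18488 to 20075 in the controls. Mitochondrially encoded RNA made up 31% of its TPM and 22.1% in the other KspCre DKO library, against 18.2% to 23.2% in the controls. At a fixed TPM sum, a larger mitochondrial share leaves a smaller one for nuclear genes. Dnmt3a and Dnmt3b RNA did not separate the groups and so does not check the labels; Dnmt3a stood at 9.98 and 14.2 TPM in KspCre DKO libraries against 13.2, 19.0 and 15.5 TPM in controls. Levels are therefore shown library by library, and the members' median was recomputed without each library and without mitochondrial RNA.

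Promoter windows of the members are shown first, as a description. They come from RefSeq (build GRCm38.p6) and run from 250 bases before the transcription start to 50 bases after it. A window was found for 33 of the 37 members. The members lie on 15 chromosomes, with at most 5 on any of them, so they are not one gene cluster. Windows were searched on both strands for words bound by 4 kinds of factor that are known at promoters of respiratory genes.

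The NRF1 word, GCGCA and GCGC with any base between them, was found in 7 of the 33 members (21.2%) and in 5.19% of the 27025 genes in the table. The YY1 word AAGATGGCG was found in 5 members (15.2%), against 1.64% of all genes. The ETS word CCGGAAG, bound by GABPA among others, was found in 4 members (12.1%), against 9.93% of all genes. The GC box GGGCGG, bound by Sp1, was found in 15 members (45.5%), against 38.2% of all genes. These matches of letters are a description, and a window without a match says nothing about the factor. The comparison covers every gene with a window, whether or not it was among the genes tested here. Shares among genes expressed like the members were not computed, and a link of the words to the RNA levels was not tested.

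The YY1 word is printed in capitals with up to 10 bases on either side in the 5 members that hold it, each 5′ to 3′ on the strand of the gene. In all 5 it was spelled as AAGATGGCG on that strand and began at +23 to +36, counting the start in the promoter table as +1. For Ndufs7 that start lies downstream of the first base of the gene span given below. The 5 differ in their log2 fold change between groups, from −1.24 for Ndufs4 and −0.95 for Ndufc1 to −0.37 for Ndufs7.
Ndufs4 (chr13:114388045-114388069, minus strand): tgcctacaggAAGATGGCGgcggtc
Ndufc1 (chr3:51408915-51408943, minus strand): cctgcggaacAAGATGGCGccgtccgtag
Ndufa9 (chr6:126849097-126849125, minus strand): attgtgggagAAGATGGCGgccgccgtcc
Ndufs6 (chr13:73328433-73328459, minus strand): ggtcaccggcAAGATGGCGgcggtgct
Ndufs7 (chr10:80249463-80249491, plus strand): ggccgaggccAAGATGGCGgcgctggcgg

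The NRF1 word, in capitals with 20 bases on either side cut at the start site, is shown in 4 of the 6 members in which it lay before the start. Ndufs5 holds it as spelled above on the strand of the gene, whereas Ndufs6 and Ndufa8 hold its reverse complement. In Ndufa11 the match reads the same on both strands. Ndufa5 and Ndufb4 also hold it before the start and are not printed. The word ended 7 bases before the start in Ndufs6, 21 in Ndufa8, 51 in Ndufa11 and 89 in Ndufs5. Ndufs6 held both words.
Ndufs6 (chr13:73328483-73328518, minus strand): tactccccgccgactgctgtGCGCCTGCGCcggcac
Ndufa8 (chr2:36049339-36049388, minus strand): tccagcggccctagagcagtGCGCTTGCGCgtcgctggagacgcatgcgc
Ndufa11 (chr17:56717682-56717731, plus strand): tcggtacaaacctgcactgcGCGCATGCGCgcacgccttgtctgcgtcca
Ndufs5 (chr4:123718255-123718304, minus strand): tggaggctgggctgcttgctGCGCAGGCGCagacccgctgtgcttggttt

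All 37 members had a lower mean on the log2(TPM + 1) scale in KspCre DKO than in control kidneys, and none passed the test across all genes. Their summed level was 11393 and 9100 TPM in the KspCre DKO libraries, against 15947, 14399 and 17790 TPM in the controls, which is 71% and 56.7% of the control mean. The 2 groups of sums did not overlap. The log2 fold change, KspCre DKO minus control, had a median of −0.66 over the members and ran from −1.24 for Ndufs4 to −0.20 for Ndufc2. Over all 13963 tested genes the median was −0.14, and 61.7% of them were lower. Over the 1876 tested genes at or above the mean level of the lowest member, the median was −0.25 and 75.7% were lower.

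No member reached an adjusted p below 0.05 (limma on log2(TPM + 1), Benjamini-Hochberg over all tested genes). The smallest adjusted p among members was 0.2, for Ndufab1. Across all genes the same test called 9 lower (0.0645%) and 14 higher (0.1%). At an unadjusted limma p below 0.05, 6.15% of all tested genes were lower and 4.16% higher. Of the 1876 genes at or above the mean level of the lowest member, 11.6% were lower. Those 1876 genes were not matched to the members in level, with a median of 103.4 TPM against 302.5 TPM for the members. Of the 37 members, 24 were lower at that p and 0 higher. That count was 4 without control replicate 3, 5 without KspCre DKO replicate 2, 10 without control replicate 1, and 9 without the trend of variance with level. For 35 of 37 members both KspCre DKO libraries lay below every control, where 15.6% of all tested genes and 27.7% of the 1876 did so. The exceptions were Ndufb3 and Ndufc2. These 37 genes rest on the same 5 libraries, so their number adds no replicates. An exact permutation of 2 against 3 libraries has 10 splits and cannot go below p = 0.1.

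**Figure D1:**
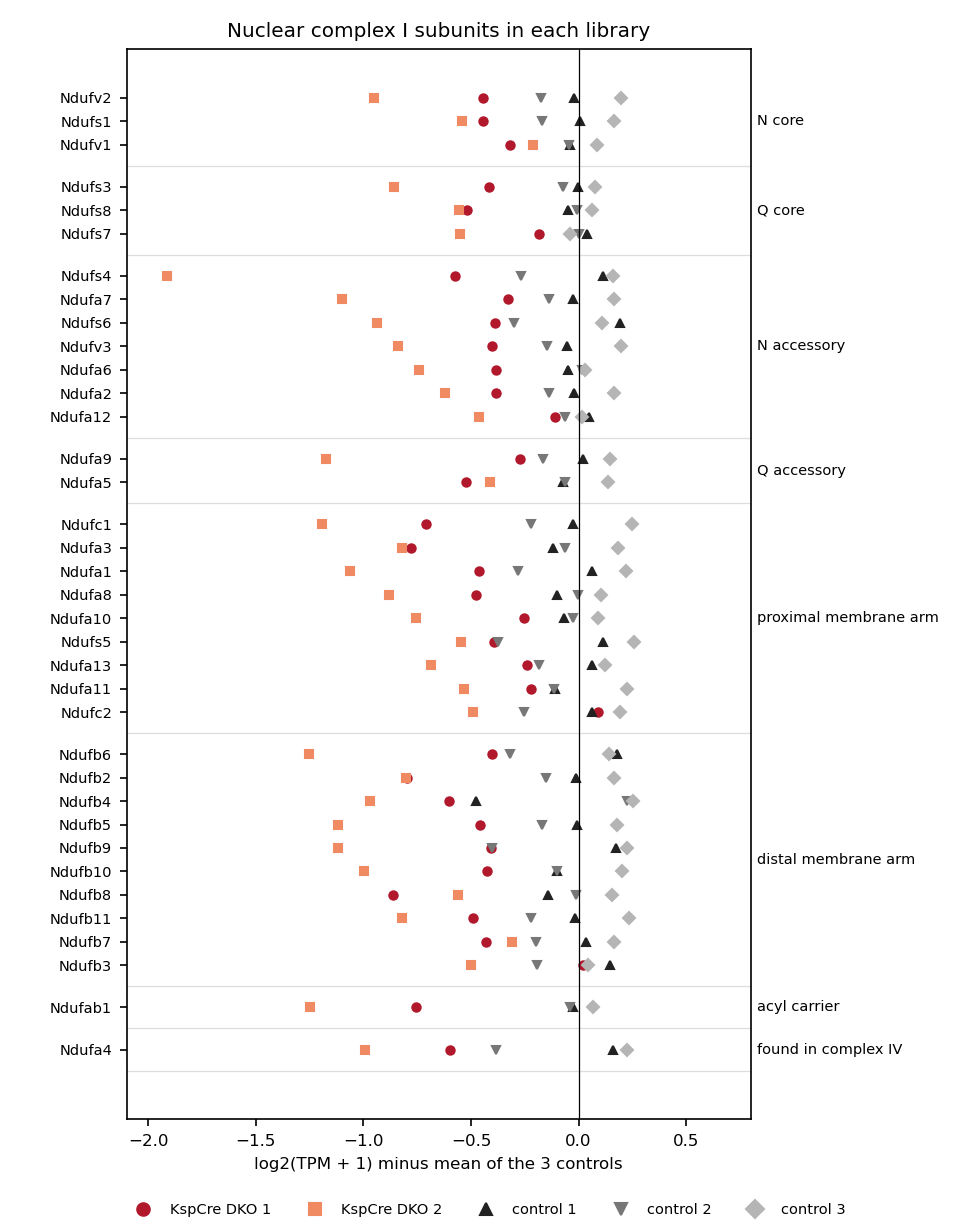
Each of the 36 rows is one member, grouped by its place in the complex, and each symbol is one library, plotted as log2(TPM + 1) minus the mean of the 3 controls. KspCre DKO libraries (red circles and orange squares) lie left of all controls (grey and black) in 34 rows, and KspCre DKO replicate 2 lies farthest left in 32.

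**Figure D2:**
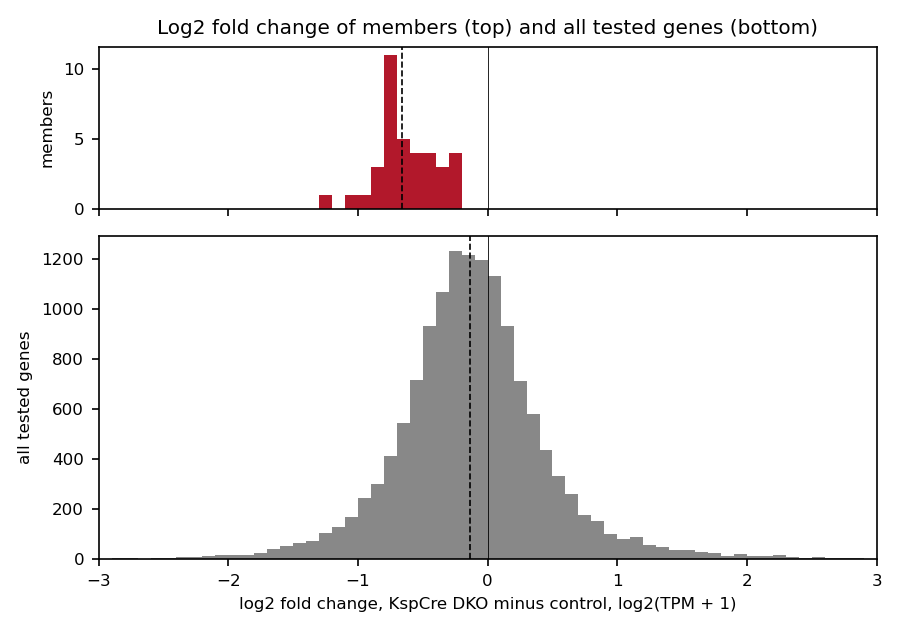
Number of genes by log2 fold change, KspCre DKO minus control, in bins of 0.1 from −3 to 3, for the 37 members (top) and all 13963 tested genes (bottom, genes beyond the axis not drawn). Dashed lines mark the medians, −0.66 and −0.14, and solid lines mark 0.

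The core subunits of the N module carry the site where NADH is oxidised. Ndufv1 binds NADH and the flavin cofactor, Ndufv2 holds an iron-sulfur cluster beside it, and Ndufs1 carries further clusters towards the Q module. Ndufv1 (chr19:4007499-4012755) stood at 238 and 256 TPM in KspCre DKO libraries, against 289, 288 and 315 TPM in controls. Its log2 fold change was −0.26 ± 0.23 (SE; limma adjusted p = 0.717), and the groups did not overlap. Ndufv2 (chr17:66078795-66101559) stood at 218 and 153 TPM, against 292, 262 and 340 TPM in controls, and Ndufs1 (chr1:63143592-63176822) at 106 and 99.3 TPM, against 146, 129 and 163 TPM. The log2 fold change was −0.70 ± 0.27 for Ndufv2 (SE; adjusted p = 0.415) and −0.49 ± 0.25 for Ndufs1 (SE; adjusted p = 0.538). The KspCre DKO libraries were apart for Ndufv2, with replicate 2 below replicate 1, and close to each other for Ndufs1.

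The core subunits of the Q module line the ubiquinone pocket, carry the last iron-sulfur clusters before it (Ndufs7 and Ndufs8) or hold the arm together (Ndufs3). Ndufs3 (chr2:90894627-90904721) stood at 221 and 162 TPM in KspCre DKO libraries, against 294, 280 and 311 TPM in controls. Ndufs8 (chr19:3908863-3912774) was nearly the same in both KspCre DKO libraries, at 154 and 150 TPM, against 213, 220 and 230 TPM in controls. Its log2 fold change of −0.54 ± 0.23 (SE) had a limma adjusted p of 0.475. Ndufs7 (chr10:80249105-80256794) stood at 267 and 207 TPM, against 312, 304 and 294 TPM in controls (log2 fold change −0.37 ± 0.24 SE; adjusted p = 0.635). None of the 7 core subunits had overlapping groups.

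Of the 7 accessory subunits of the N module, all were lower in KspCre DKO with no overlap, with a median log2 fold change of −0.62. Ndufs4, which joins late in assembly and whose loss causes Leigh syndrome in humans and mice, had the most negative log2 fold change of all members. Ndufs4 (ENSMUSG00000021764.8, chr13:114287795-114388094) stood at 159 and 62.3 TPM in KspCre DKO libraries, against 256, 196 and 264 TPM in controls. The log2 fold change was −1.24 ± 0.39 (SE; limma adjusted p = 0.324). Both KspCre DKO libraries lay below every control, and replicate 2 lay far below replicate 1. Ndufa12, which binds next to Ndufs4, had one of the 4 log2 fold changes nearest to 0. It stood at 374 and 293 TPM in KspCre DKO libraries, against 417, 386 and 408 TPM in controls (log2 fold change −0.28 ± 0.23 SE; adjusted p = 0.704). The other 5, Ndufv3, Ndufs6, Ndufa2, Ndufa6 and Ndufa7, had log2 fold changes from −0.71 to −0.50. Ndufs6, a zinc-binding subunit, stood at 270 and 184 TPM in KspCre DKO libraries, against 403, 287 and 381 TPM in controls, and KspCre DKO replicate 1 lay close to control replicate 2. Ndufa6 was the highest of the 7 in level, at 596 and 466 TPM, against 754, 788 and 796 TPM in controls. The Q module and its border hold Ndufa9, a nucleotide-binding subunit, and Ndufa5, at log2 fold changes of −0.72 and −0.47. Ndufa9 stood at 157 and 83.2 TPM in KspCre DKO libraries, against 192, 169 and 209 TPM in controls, and Ndufa5 at 481 and 520 TPM, against 658, 662 and 761 TPM in controls. KspCre DKO replicate 2 was thus the lower of the pair for Ndufa9 and the higher for Ndufa5.

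Ndufab1, the mitochondrial acyl carrier protein, sits in both arms and also serves mitochondrial fatty acid synthesis. It had the smallest p of all members. Ndufab1 (ENSMUSG00000030869.11, chr7:122086815-122101848) stood at 347 and 246 TPM in KspCre DKO libraries, against 576, 570 and 615 TPM in controls. The controls were close together, and KspCre DKO replicate 1 and replicate 2 both lay well below them. The mean in KspCre DKO was 50.6% of the control mean (log2 fold change −1.0 ± 0.24 SE; limma unadjusted p = 0.00312, adjusted p = 0.2). Its pseudogene Ndufab1-ps was at or below 0.3 TPM in every library.

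The proximal membrane arm held 9 accessory members, with a median log2 fold change of −0.50, and 8 of them had no overlap. Ndufc1 and Ndufc2 mark its range. Ndufc1 (chr3:51405479-51408955), a small membrane subunit, stood at 521 and 373 TPM in KspCre DKO libraries, against 839, 732 and 1015 TPM in controls (log2 fold change −0.95 ± 0.26 SE; limma adjusted p = 0.252). Ndufa3 (chr7:3617347-3620165) was nearly the same in both KspCre DKO libraries, at 390 and 379 TPM, against 617, 641 and 761 TPM in controls (log2 fold change −0.80 ± 0.23 SE; adjusted p = 0.269). Ndufc2 (chr7:97400003-97407800), which lies beside Ndufc1 in the enzyme, was the member nearest to 0. Ndufc2 stood at 214 and 142 TPM in KspCre DKO libraries, against 209, 168 and 229 TPM in controls, so KspCre DKO replicate 1 lay within the control range (log2 fold change −0.20 ± 0.28 SE; adjusted p = 0.84). Ndufa11 had the lowest level of all members, at 50.7 and 40.7 TPM in KspCre DKO libraries, against 54.9, 54.7 and 69.4 TPM in controls. Its value is uncertain to the extent that reads could be shared with Ndufa11b, a related sequence listed at 0 in every library. The other 5, Ndufa1, Ndufa8, Ndufa10, Ndufa13 and Ndufs5, had log2 fold changes from −0.76 to −0.46. Ndufa1, an X-linked subunit, stood at 439 and 289 TPM in KspCre DKO libraries, against 631, 497 and 706 TPM in controls. Ndufs5, on the intermembrane-space side, was without overlap by a narrow margin, at 222 and 199 TPM, against 316, 225 and 349 TPM in controls. Ndufa8, which lies on the same side, was clear of the controls, at 237 and 179 TPM, against 308, 330.1 and 355 TPM.

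The distal membrane arm held 10 members, all Ndufb genes, with a median log2 fold change of −0.74. In 9 of them the groups did not overlap. Ndufb2 (chr6:39592565-39599843) stood at 218 TPM in each KspCre DKO library, against 377, 343 and 426 TPM in controls (log2 fold change −0.80 ± 0.23 SE; limma adjusted p = 0.282). Ndufb6 (chr4:40270591-40279421) stood at 167 and 92.2 TPM in KspCre DKO libraries, against 250, 177 and 245 TPM in controls. There KspCre DKO replicate 1 lay only just below control replicate 2, and the log2 fold change of −0.83 ± 0.32 (SE) had an adjusted p of 0.425. Ndufb3 (chr1:58586397-58595964) overlapped, at 190 and 132 TPM in KspCre DKO libraries, against 207, 163 and 193 TPM in controls (log2 fold change −0.24 ± 0.27 SE; adjusted p = 0.789). The other 7 ran from −0.79 for Ndufb4 and Ndufb5 to −0.37 for Ndufb7. Ndufb8, second in level only to Ndufa4, stood at 658 and 812 TPM in KspCre DKO libraries, against 1084, 1185 and 1332 TPM in controls, with KspCre DKO replicate 2 the higher of the pair. Ndufb9 stood at 412 and 252 TPM, against 618, 414 and 640.1 TPM in controls, so KspCre DKO replicate 1 was below control replicate 2 by a narrow margin. The X-linked Ndufb11 stood at 249.9 and 199 TPM, against 348, 302 and 414 TPM in controls.

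Some members have gene copies that can take part of their reads. Ndufb4c on chromosome 15, a copy of Ndufb4, was listed at 228 and 167 TPM in KspCre DKO libraries, against 242, 216 and 208 TPM in controls, near the level of Ndufb4 itself. Ndufb4 stood at 158 and 122 TPM, against 172, 281 and 287 TPM in controls, so the controls themselves were split. The sum of both was 386.5 and 289 TPM in KspCre DKO libraries, against 415, 497 and 495 TPM in controls, and its groups did not overlap either. How reads were divided between the copies was not tested, and both values are uncertain. Ndufb1-ps, which the gene name table marks as a pseudogene and RefSeq lists as a synonym of the protein-coding Ndufb1, is outside the rule. It stood at 120 and 148 TPM in KspCre DKO libraries, against 193, 154 and 185 TPM in controls (log2 fold change −0.40 ± 0.25 SE; limma adjusted p = 0.626).

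Ndufa4, a subunit of complex IV despite its name, had the highest level of all members. Ndufa4 stood at 878 and 668 TPM in KspCre DKO libraries, against 1484, 1019 and 1552 TPM in controls (log2 fold change −0.79 ± 0.27 SE; limma adjusted p = 0.356). Leaving it out changed the median of the remaining 36 members by nothing at the 2 decimals given, at −0.66. Its paralog Ndufa4l2, outside the rule, stood at 5.9 and 4.42 TPM, against 16.8, 7.61 and 16.0 TPM in controls (adjusted p = 0.356).

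**Figure D3:**
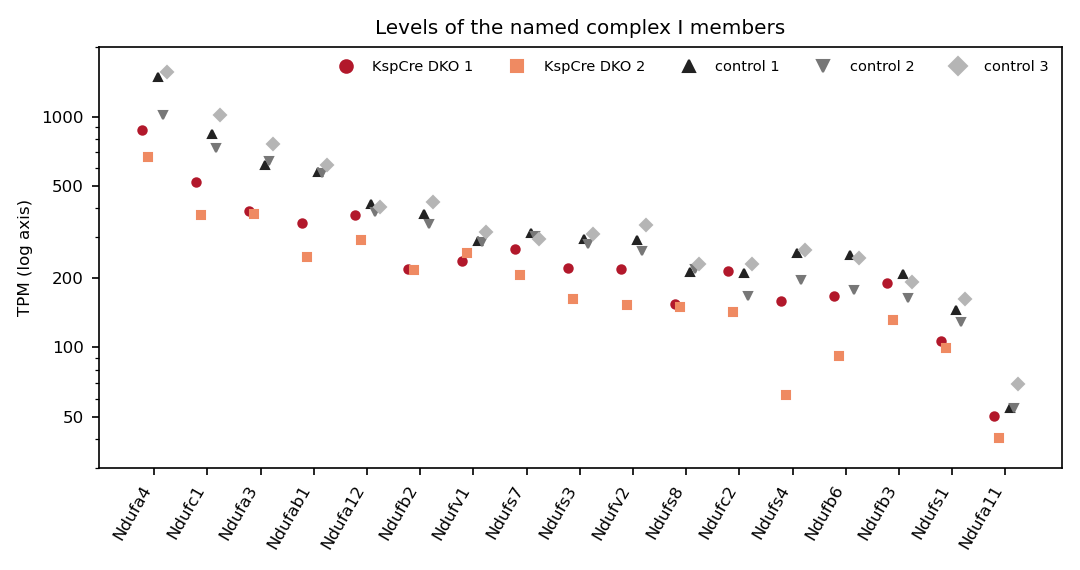
TPM (log axis) of 17 members named by rule, ordered by mean level, with one symbol per library. Levels run from 40.7 TPM (Ndufa11, KspCre DKO replicate 2) to 1552 TPM (Ndufa4, control replicate 3), and Ndufs4 has the widest gap between the KspCre DKO libraries.

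Members kept nearly the same order of level in every library. Spearman's rho of levels over the 37 members lay between 0.91 and 0.982 for every pair of libraries, a correlation over genes of shared libraries that is given as a description. The SD over members of the log2 difference from the control mean was 0.21 in KspCre DKO replicate 1 and 0.33 in KspCre DKO replicate 2. In the controls, whose own values enter that mean, it was 0.07 to 0.13. Over all tested genes the SD was likewise wider in KspCre DKO, at 0.63 and 0.85, against 0.32 to 0.36 in controls. KspCre DKO replicate 2 was the lowest of the 5 libraries for 33 members and KspCre DKO replicate 1 for the other 4, Ndufa5, Ndufb7, Ndufb8 and Ndufv1. Across all tested genes, 79.3% were lower in KspCre DKO replicate 2 than in KspCre DKO replicate 1, where 33 of 37 members were.

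The single-library medians were −0.42 in KspCre DKO replicate 1 and −0.82 in KspCre DKO replicate 2, against −0.01, −0.15 and 0.16 in controls 1, 2 and 3. The median over all tested genes was 0.13 in KspCre DKO replicate 1 and −0.39 in KspCre DKO replicate 2. The members' median was below that of all genes in each library of the KspCre DKO group. A fit that left out replicate 2, and so rests on 1 KspCre DKO library assumed to vary like the controls, put Ndufb3 and Ndufc2 above 0 and 35 members below it. When KspCre DKO replicate 1 was left out instead, Ndufs4 (log2 fold change −1.91 ± 0.27 SE; limma adjusted p = 0.0428) and Ndufab1 (−1.25 ± 0.21 SE; adjusted p = 0.0451) passed, in a fit that called 3.39% of all genes lower.

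Levels were also compared on other scales, given the higher mitochondrial share of KspCre DKO replicate 2. With TPM rescaled without mitochondrially encoded genes, the median of the members was −0.55 and that of all genes −0.04. In this scaling 33 members had no overlap, where 13% of all genes were lower without overlap. The members that then overlapped were Ndufb3, Ndufc2, Ndufb7 and Ndufv1. With median-of-ratios scaling it was 31 members, where 16.9% of all genes were lower without overlap, and Ndufv1, Ndufa5, Ndufb7, Ndufb8, Ndufs5 and Ndufc2 overlapped. All 37 log2 fold changes stayed negative in both, and with quantile normalization 34 did (median −0.38), Ndufv1, Ndufc2 and Ndufa12 being at 0.00 to 0.04.

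**Figure D4:**
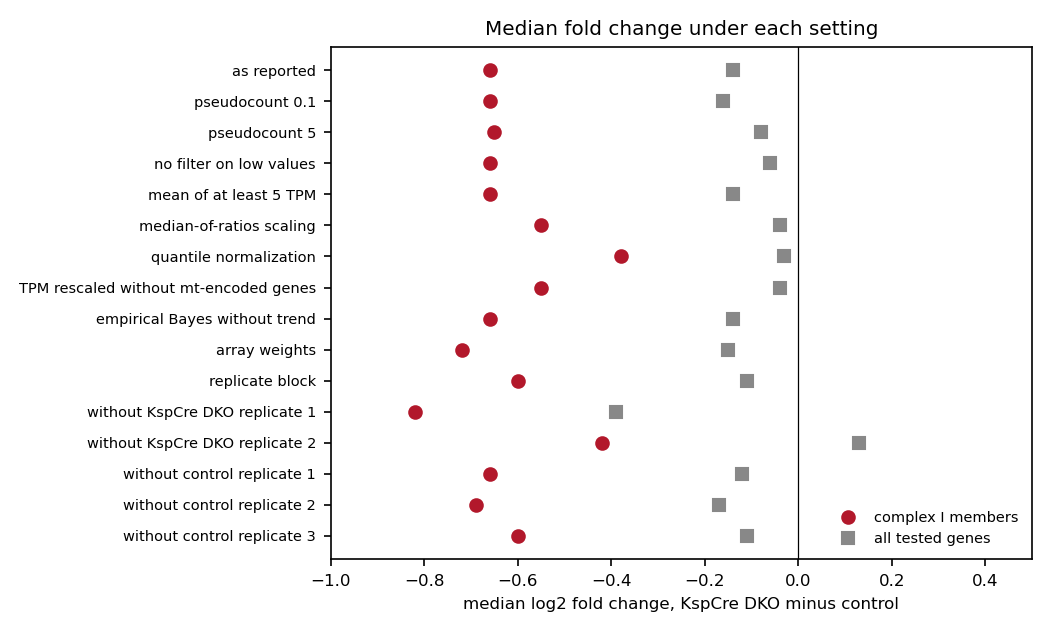
Median log2 fold change, KspCre DKO minus control, of the 37 members (circles) and of all tested genes (squares) under each setting, from the fit as reported at the top to the fits that leave out 1 library. The members' median lies below that of all genes in every row, from −0.82 to −0.38.

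The 7 mitochondrially encoded complex I subunits, which form the core of the membrane arm, had positive log2 fold changes that came mostly from KspCre DKO replicate 2. Their summed level was 52620 and 101146 TPM in KspCre DKO libraries, against 48134, 64467 and 52456 TPM in controls. KspCre DKO replicate 1 lay within the control range and replicate 2 far above it. In KspCre DKO replicate 1, 5 of the 7 were below the control mean (median log2 difference −0.06), and in replicate 2 none was (0.77). Over both libraries all 7 had positive log2 fold changes, with a median of 0.34, none passed at an unadjusted p below 0.05, and the groups overlapped for each. The most positive was mt-Nd4l, at 2860 and 13755 TPM in KspCre DKO libraries, against 3209, 4611 and 2717 TPM in controls (log2 fold change 0.87 ± 0.57 SE; limma adjusted p = 0.635). For mt-Nd3 the KspCre DKO libraries lay on either side of the controls, at 520 and 4482 TPM, against 1295, 1192 and 1433 TPM. For mt-Nd5 both KspCre DKO libraries lay above control replicates 1 and 3, at 5853 and 6873 TPM, against 4207, 6330 and 4521 TPM in controls. The ratio of the mitochondrially encoded to the nuclear sum was 4.62 and 11.1 in KspCre DKO libraries, against 3.02, 4.48 and 2.95 in controls.

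Assembly factors build the enzyme and, for the most part, leave it. Of 20 tested factors, 19 were lower in KspCre DKO and 1 was higher; their median was −0.37 on the log2 scale, and 7 were lower without overlap. Their summed level was 621 and 377 TPM in KspCre DKO libraries, against 688, 675 and 697 TPM in controls. None passed over all genes, and Ndufaf4 was the 1 with an unadjusted p below 0.05. Ndufaf4 stood at 19.6 and 6.53 TPM in KspCre DKO libraries, against 31.3, 25.7 and 35.3 TPM in controls (log2 fold change −1.34 ± 0.43 SE; limma adjusted p = 0.329). Timmdc1 and Aifm1 had log2 fold changes of −0.86 and −0.74.

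The nuclear subunits of complexes II to V, which take electrons on to oxygen and make ATP, were also lower in KspCre DKO. All 42 tested genes of 43 were lower, with a median log2 fold change of −0.75, 32 had an unadjusted p below 0.05, and 31 were lower without overlap. The medians were −0.48 for the 4 genes of complex II, −0.68 for 9 of complex III, −0.85 for 11 of complex IV and −0.76 for 18 of complex V. Whether these medians differ from that of complex I was not tested. Atp5e, the epsilon subunit of ATP synthase, was the 1 gene that passed, at 519 and 618 TPM in KspCre DKO libraries, against 1780, 1635 and 2081 TPM in controls (log2 fold change −1.68 ± 0.23 SE; limma adjusted p = 0.0462). Of complex II, 0 of 4 genes were without overlap. In summed level KspCre DKO replicate 1 stood at 867 TPM (93.1% of the control mean), above control replicate 2 at 765 TPM (82.2%). Complex IV subunit Cox6c stood at 1109 and 877 TPM in KspCre DKO libraries, against 1872, 1624 and 2032 TPM in controls (adjusted p = 0.22), and complex III subunit Uqcr10 at 879 and 600 TPM, against 1453, 1101 and 1606 TPM in controls (adjusted p = 0.291).

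**Figure D5:**
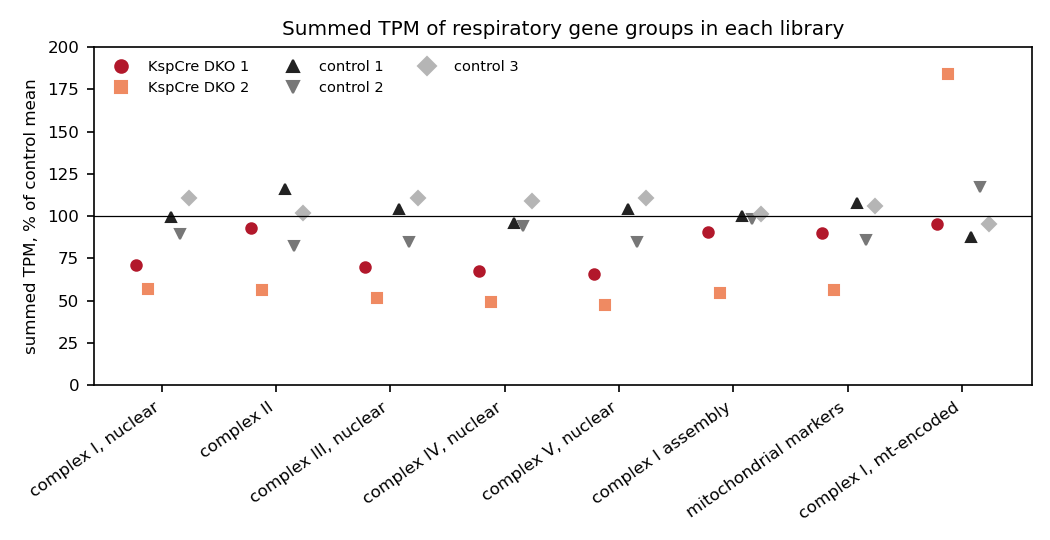
Summed TPM of each respiratory gene group as a percentage of the control mean (line at 100), with one symbol per library. Nuclear complex I stands at 71% and 56.7% in the KspCre DKO libraries, and mitochondrially encoded complex I at 95.6% and 184%.

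Of 17 general mitochondrial genes (import, chaperones, outer membrane), 16 were lower and 1 was higher, and the median log2 fold change was −0.52. Their summed level was 1667 and 1046 TPM in KspCre DKO libraries, against 1995, 1595 and 1973 TPM in controls, so KspCre DKO replicate 1 lay within the control range. Timm23, a pore subunit of protein import, stood at 108 and 64.1 TPM, against 130, 150 and 152 TPM in controls (limma adjusted p = 0.404). Of 17 regulators of mitochondrial gene expression, 13 were lower (76.5%) and 4 higher, and none passed. Among all tested genes 61.7% were lower, and 75.7% of the 1876 at or above the lowest member. In KspCre DKO replicate 1, 8 of the 17 regulators were below the control mean (median log2 difference 0.05), and in replicate 2, 13 were (−0.75). Esrrb, an estrogen-related receptor, stood at 8.8 and 3.72 TPM in KspCre DKO libraries, against 13.6, 18.3 and 19.3 TPM in controls (adjusted p = 0.255). The methyltransferase gene Tfb1m, which modifies mitochondrial ribosomal RNA, was on the other side, at 5.95 and 7.67 TPM in KspCre DKO libraries, against 3.3, 3.09 and 2.44 TPM in controls (adjusted p = 0.365).

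Markers of kidney cell types were read beside these values, since in whole kidney fewer cells of a type and less RNA per cell cannot be told apart. Of 110 markers in 10 lists, 106 were above 0 in every library, a bar too low to check the tissue label. Thick ascending limb markers, all 13 lower, summed to 845 to 1435 TPM in KspCre DKO libraries, against 2665 to 3076 TPM in controls. The 20 proximal tubule markers were split, with 10 lower and 10 higher: 2 lay below the control mean in KspCre DKO replicate 1 and 19 in replicate 2. They summed to 32495 and 31100 TPM in KspCre DKO libraries, against 36513 to 48811 TPM in controls, most of it Kap; the other 19 summed to 10720 and 4588 TPM, against 8048, 6484 and 5325 TPM in controls. Distal convoluted tubule markers, 7 of 10 lower, summed to 2199 and 2763 TPM in KspCre DKO libraries, against 3949 to 4632 TPM in controls. Most of that sum was S100g, and the other 9 summed to 565 and 516 TPM, against 663, 643 and 570 TPM in controls. Collecting duct principal cell markers, 7 of 10 higher, summed to 2631 to 2662 TPM in KspCre DKO libraries, against 1088 to 1140 TPM in controls. None of these lists had a gene that passed over all genes; Aqp2 came nearest, at 1414 and 1218 TPM against 347, 240 and 426 TPM in controls (limma adjusted p = 0.0512).

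Summed levels of the remaining lists overlapped between groups, except for macrophages (lower in KspCre DKO) and red cells (higher). Intercalated cell markers, 8 of 10 lower, summed to 420 and 583 TPM in KspCre DKO libraries, against 455 to 640 TPM in controls. The most abundant of them was Rhcg, at 123 and 338 TPM in KspCre DKO libraries. The other 9 summed to 297 and 245 TPM, against 312, 393 and 357 TPM in controls, without overlap. Fibroblast and matrix markers summed to 235 to 431 against 238 to 694 TPM, and endothelial markers to 456 to 612 against 447 to 766 TPM. Podocyte markers summed to 271 to 277 TPM against 167 to 527 TPM in controls, and macrophage markers to 68 to 74 TPM against 106 to 156 TPM. Of 9 tested macrophage markers, 8 were lower and 1 was higher. The groups did not overlap for 4 lower and 1 higher of them. The fibroblast marker Lum and the macrophage markers Adgre1 and Fcer1g were listed at 0 in KspCre DKO replicate 2. Red cell markers summed to 8522 to 9910 TPM in KspCre DKO libraries, against 997 to 8349 TPM in controls. The part of the lower thick ascending limb markers, and of the mitochondrial RNA share, in the levels of complex I subunits was not tested.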

How the data were processed

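RNA of 5 whole-kidney libraries was analysed; the 14 bisulfite libraries are not analysed here. The deposited values are TPM per Ensembl gene, which the authors scaled to the same sum in every library. STAR 2.2.1, RSEM 1.3.1, Trim Galore 0.5.0, Bismark 0.19.1 and build mm10 appear in the submitters' processing notes, with no file tied to a tool. For settings, annotation and strand use the entry is: not given in the sources used here. Per the labels' protocols, poly(A) RNA was made into TruSeq libraries. Identifiers were paired with symbols exactly (52480 of 54146) or without their version suffix (1599 more), which supplied 6 of the 37 members.

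limma 3.58.1 in R 4.3.3 was run on log2(TPM + 1), two-sided, with moderated variances that follow the mean level, on the 13963 genes that averaged 1 TPM or more. P-values were adjusted by Benjamini-Hochberg over all of them and called below 0.05. This scale understates the fold changes of low genes. The script was checked on simulated data. Positions are RefSeq GRCm38.p6, matched by symbol.

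Members and lists were chosen with earlier results of these data known. Named in full were the core subunits, the 6 most negative and 4 most positive log2 fold changes, Ndufa4, Ndufab1 and the highest and lowest level; of other lists, up to 3 genes of smallest p. mt-Nd3, Kap, S100g, Rhcg, Ndufb4 and other members given with values were chosen after their values were seen. Items that the rules name but that are absent from the text are not reported here, and stay in the sums, counts and medians. Alternatives were other pseudocounts, filters, scalings and variance models, a replicate block and leaving out each library.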

Additional observations from a re-analysis of the deposited data

How the results depend on the processing

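The members' median log2 fold change of −0.66 stayed negative under every setting tried, at −0.38 with quantile normalization, and between −0.82 and −0.42 when 1 library was left out. The log2 ratio of summed TPM was −0.35 with quantile normalization and between −0.82 and −0.49 with 1 library left out. No member was called lower except in the fit without KspCre DKO replicate 1, which called 2 (range 0 to 2 with 1 library left out). Ndufv1, Ndufc2 and Ndufa12 turned to 0.00, 0.02 and 0.04 with quantile normalization. With 1 library left out, Ndufc2 ran from −0.49 to 0.09 and Ndufb3 from −0.50 to 0.02, positive without KspCre DKO replicate 2. Over all genes, calls (higher and lower) were 7 higher with a pseudocount of 0.1, 28 higher with one of 5, 3 and 1 with no filter, 24 higher with median-of-ratios scaling, 32 higher with quantile normalization, 26 higher without mitochondrially encoded genes, 6 and 3 without a trend, and 3 and 2 with array weights. Leaving out 1 library gave 3 to 90 higher and 3 to 470 lower. The cause of these moves was not tested. With the replicate block, calls were 47 higher and 28 lower, no member was called, and the members' median was −0.60. The replicate numbers are not stated to pair the samples and were not taken to do so. Same-numbered libraries correlated at 0.0926 and 0.0281 in their deviations from the group means. With 2 KspCre DKO libraries these deviations mirror each other, so the correlations cannot decide whether samples are paired. Array weights gave no summed TPM of their own. TPM keep no read number, so what depth limits cannot be stated.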
